A study of Homo sapiens with 4 samples.

Results

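The genes followed here are 38 targets and regulators of the transcription factor NRF2, including the enzymes that make and use glutathione, taken by gene symbol from the 57905 genes of the deposited count table. All 38 were found under 1 entry each and all 38 passed the expression filter, a mean of at least 1 CPM (counts scaled to library size with edgeR's TMM factors) over the 4 libraries, as did 13966 genes in all. The gene list did not use any measured value in its rule. It was proposed, however, with earlier results of these libraries known.

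RNA was sequenced from A549, a cell line established from a human lung adenocarcinoma, with 1 poly(A) library per condition. The conditions were cells with a scramble control hairpin, cells with a hairpin against DCBLD2 (shDCBLD2), cells with an empty vector and cells labelled DCBLD2 overexpression (OE). In the study's methods all lines were made with lentivirus; the overexpression plasmid carried the DCBLD2 coding sequence under an EF1 promoter with blasticidin resistance, and the hairpin plasmid carried puromycin resistance. Whether each line was a pool or 1 clone, and which hairpin the shDCBLD2 library carried, is not given in the sources used here. Counts on genes came to between 16601633 and 21537283 per library. Since no condition had a replicate, each comparison is between 2 libraries, no p-value is given, and each 95% interval covers counting error only. A gene was called higher or lower when it differed at least 2-fold and the interval excluded no change. The empty vector was also set against the scramble control, which shows how far separately made control lines differed.

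DCBLD2 itself stood at 504 CPM in the scramble control, 197 in shDCBLD2, 434 in the empty vector library and 242 in the one labelled OE. It was therefore lower, not higher, in the library labelled OE than in its control, with a log2 ratio of -0.84 (-0.90 to -0.79), and a direction drawn from that library carries this limit. The library also stood apart in other ways. In it, 66 genes reached 50 counts while staying at 3 counts or fewer in each other library, and the other libraries held 0 such genes. The 6 epithelial markers were all detected and summed to between 12600 and 19200 CPM, highest in the library labelled OE and lowest in shDCBLD2. KRT7, KRT8 and KRT18 led in every library. KRT7 did not follow the order of the sum, with 4051, 4938, 5276 and 4522 CPM in the library order used for DCBLD2. In shDCBLD2 CDH1, EPCAM and KRT19 were called lower, beside 5.62% of all genes. Over the empty vector EPCAM and KRT19 were called higher in the library labelled OE, beside 6.42%. Of 8 alveolar type II markers only ABCA3 passed the filter, and SFTPA1 had 0 counts in every library. Of 9 fibroblast markers 4 passed, and the summed level of all 9 was 35.9 CPM in the scramble control, 56.6 in shDCBLD2, 37.4 in the empty vector library and 79.4 in the one labelled OE. COL1A1 made up most of each sum, with 32.7, 54, 35.5 and 63.1 CPM in the same order. COL1A2, COL3A1 and COL6A3, at most 4.66 CPM each, were called higher in the library labelled OE over the empty vector, beside 6.42% of all genes. In shDCBLD2 COL1A2 was called lower, with 1 count against 17 in the scramble control, beside 5.62% of all genes. FAP had 0 counts everywhere, and POSTN had 42 counts in the library labelled OE and 0 elsewhere. The 6 blood markers summed to at most 1.64 CPM, with PTPRC at 0. Of 6 HEK293 markers 4 passed (PCSK1N, PEG10, MEIS2 and TSPYL5), while SYT4 and STMN2 had 0 counts everywhere. All 6 summed to between 220 and 414 CPM. In the library order used for DCBLD2, PCSK1N stood at 39.7, 35.8, 58.4 and 114 CPM and PEG10 at 218, 345, 139 and 81.2. The part of these differences in the results on the 38 genes was not tested, and in bulk RNA a smaller share of cells with a transcript and less of it per cell cannot be told apart.

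NRF2, the protein of NFE2L2, is a transcription factor that answers oxidative and electrophilic stress. In unstressed cells the adaptor KEAP1 hands it to a CUL3 ubiquitin ligase for destruction. When KEAP1 is modified or mutated, NRF2 stays in the nucleus, pairs with small MAF proteins such as MAFG and binds antioxidant response elements near genes for glutathione, thioredoxin, NADPH, quinone and iron handling. A549 carries a loss-of-function mutation in KEAP1 and is widely used as a line with high NRF2 activity.

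The response element has a core spelled TGACNNNGC, where N is any base. It was searched on both strands in the RefSeq promoter windows of GRCh38.p14, each from 250 bases before to 50 bases after a gene's start. Windows were found for 29 of the 38 genes, and 11 of these genes held the core. Of all 35116 windows, 13.3% held it, and of the 37 windows of these genes 32.4% did. A match of letters is a description and not a binding site, and many known elements lie outside so short a window. The stretches below are from genes whose values are given later, with the core or its reverse complement in capitals and the rest in lower case, 5′ to 3′ on the strand of the gene. GCLM was called lower over the empty vector, TXNRD1 and ME1 had ratios below 0 without a call, GPX2 and CYP4F11 were called in each comparison, and GSTP1 lay near 0 over the empty vector. TXNRD1 held 3 matches and ME1 held 2, of which 1 each is shown.
GCLM, chr1:93909431-93909489, minus strand: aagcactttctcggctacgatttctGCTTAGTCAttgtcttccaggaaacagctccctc
TXNRD1, chr12:104286905-104286963, plus strand: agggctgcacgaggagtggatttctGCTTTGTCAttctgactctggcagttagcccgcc
ME1, chr6:83431155-83431213, minus strand: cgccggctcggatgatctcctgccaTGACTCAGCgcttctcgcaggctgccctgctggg
GPX2, chr14:64942834-64942892, minus strand: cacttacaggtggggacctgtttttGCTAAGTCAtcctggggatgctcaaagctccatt
CYP4F11, chr19:15934990-15935048, minus strand: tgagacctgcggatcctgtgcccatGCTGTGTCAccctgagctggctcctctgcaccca
GSTP1, chr11:67583721-67583779, plus strand: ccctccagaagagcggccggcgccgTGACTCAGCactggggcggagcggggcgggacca
The core thus stood before genes that were lower, higher and nearly level in the same comparison. In the PIR window the core GCTGAGTCA began 26 bases after the annotated start. KEAP1, PGD, EPHX1 and CBR1 also held a core, while NFE2L2, GCLC, NQO1, TXN and AKR1C1 held none in these letters.

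These genes were abundant in A549. They took 3.88% of all counts in the scramble control, 3.87% in the empty vector library, 3.16% in the library labelled OE and 3% in shDCBLD2. Levels between genes were compared by the deposited FPKM, which is per kilobase of exon. By mean FPKM over the libraries, the ferritin light chain FTL led with 7620, then the ferritin heavy chain FTH1 with 1660, the aldo-keto reductase AKR1B10 with 1480 and the pentose phosphate enzyme PGD with 697. NFE2L2 itself was the lowest of the 38 at 7.87. The highest CPM of a gene over its lowest was at least 2 for 14 genes and under 1.5 for 13, with a median of 1.77, and it was at least 2 for 36.3% of all genes past the filter. Of the 38 genes, 24 were lowest in the library labelled OE, against 39.2% of all genes past the filter.

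**Figure D1:**
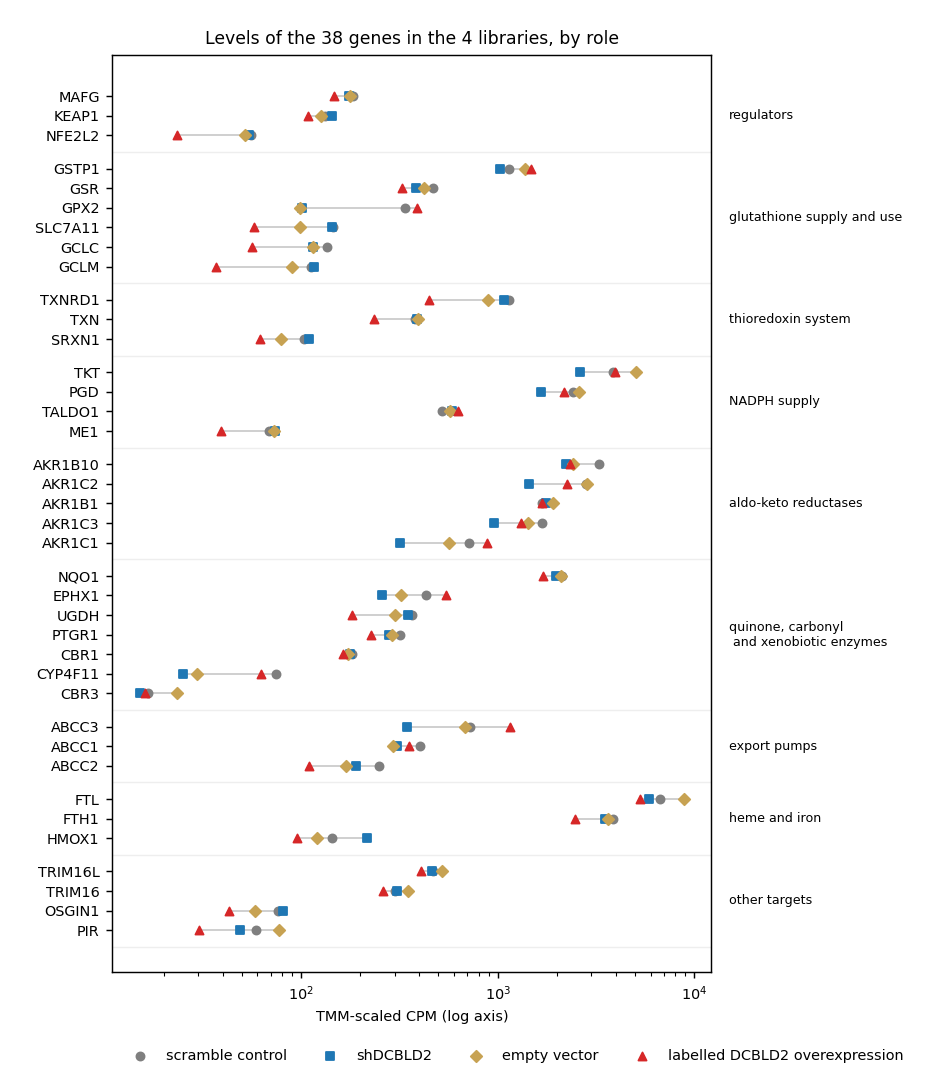
Level of each of the 38 genes in each of the 4 libraries, as TMM-scaled CPM on a log axis, grouped by role; each symbol is 1 library. The library labelled OE holds the lowest value of 24 genes, while GPX2 and CYP4F11 have a high pair and a low pair of libraries.

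In the library labelled OE over the empty vector, 4 of the 38 genes were called lower and 2 higher. The regulator NFE2L2, both subunits of the enzyme that makes the first step of glutathione synthesis (GCLC and GCLM) and the iron-binding protein PIR were at less than 0.5 of the empty vector level, while the glutathione peroxidase GPX2 and the cytochrome CYP4F11 were higher by more than 2-fold. Of the 38 genes, 30 had log2 ratios below 0 and 8 above (21.1%), where 47.1% of all genes were above 0, and their median log2 ratio was -0.35, beside -0.04 over all genes past the filter and 0.03 over the 3849 genes of at least 50 CPM. The 4 calls lower stand beside 5.35% of all genes and the 2 higher beside 6.42%. At 1.5-fold, 11 were lower, beside 17.8%, and 5 higher, beside 12.8%. Counts of calls this small do not set the list apart from all genes.

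Between shDCBLD2 and the scramble control no gene was called higher, beside 1.16% of all genes, and 4 were called lower, beside 5.62%. These were GPX2, CYP4F11, the steroid-reducing AKR1C1 and the export pump ABCC3. At 1.5-fold HMOX1 alone was higher, beside 4.93%, and 7 genes were lower, beside 11.6%. The median log2 ratio was -0.13, beside 0.01 over all genes, with 28 genes below 0 and 10 above (26.3%, where 50.9% of all genes were above 0). NFE2L2 and the glutathione synthesis genes differed little in this comparison.

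Between the 2 control libraries, empty vector over scramble control, 2 genes were called lower, beside 1.89% of all genes, and 0 higher, beside 2.22%. The same 2 were also the only ones lower at 1.5-fold, beside 6.67%, and 0 were higher, beside 7.07%. They were GPX2 and CYP4F11 again, so for these genes the control lines differed about as much as the treated lines did from their controls. The median log2 ratio was -0.10, beside -0.01 over all genes.

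Of the 3 regulators, NFE2L2 alone was called. It had 1094 counts in the scramble control, 1174 in shDCBLD2, 951 in the empty vector library and 386 in the one labelled OE, or 55.9, 54.4, 51.8 and 23.4 CPM. The first 3 libraries were close to each other and the fourth stood alone below them. The log2 ratio over the empty vector was -1.14 (-1.32 to -0.98), a level 2.21-fold lower. KEAP1, the adaptor that restrains NRF2, stood at 132 CPM, 143, 127 and 108 in the same order, with a log2 ratio of -0.23 (-0.32 to -0.14). MAFG, the partner protein, ranged from 148 to 184 CPM, with a log2 ratio of -0.26. In shDCBLD2 the log2 ratios of these regulators to the scramble control lay between -0.08 and 0.12. NFE2L2 overlaps AGPS on the opposite strand in the deposited coordinates, and the files do not say whether counting used the strand. AGPS had 1308, 1946, 930 and 453 counts.

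Glutathione is made from cysteine, which SLC7A11 imports as cystine, by the ligase of GCLC and GCLM. GCLM, the modifier subunit, stood at 112 CPM in the scramble control, 116 in shDCBLD2, 90.4 in the empty vector library and 37.1 in the one labelled OE. Its log2 ratio over the empty vector was -1.28 (-1.42 to -1.15), or 2.43-fold lower. GCLC, the catalytic subunit, stood at 135, 115, 115 and 56.6 CPM, with a log2 ratio of -1.02 (-1.13 to -0.91). That is 2.03-fold lower and just past the threshold, and with library totals as the only scaling GCLC was no longer called. SLC7A11 was at 145, 144, 98.6 and 57.9 CPM, and its log2 ratio of -0.77 (-0.88 to -0.66) did not reach 2-fold. SLC7A11 also differed between the control lines, by a log2 ratio of -0.56 (-0.64 to -0.47). None of these 3 genes was called between shDCBLD2 and the scramble control, where the log2 ratios were 0.05, -0.23 and -0.01.

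**Figure D2:**
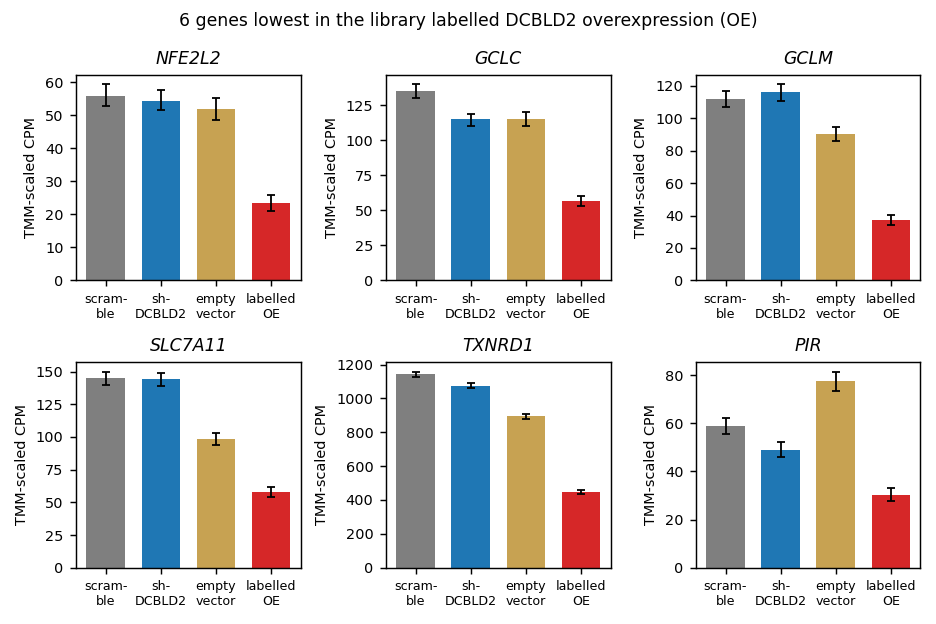
TMM-scaled CPM of NFE2L2, GCLC, GCLM, SLC7A11, TXNRD1 and PIR in the 4 libraries; each bar is 1 library and each error bar is an exact 95% Poisson interval, which covers counting error only. In each panel the library labelled OE is the lowest, with 23.4 CPM for NFE2L2 and 449 CPM for TXNRD1.

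Among the enzymes that use glutathione, the peroxidase GPX2 had the widest spread of all 38 genes, 3.90-fold. It had 6654 counts in the scramble control, 2188 in shDCBLD2, 1823 in the empty vector library and 6395 in the one labelled OE, or 340, 101, 99.3 and 387 CPM. The scramble control and the library labelled OE formed a high pair, and the other two libraries formed a low pair. The log2 ratio was 1.96 (1.89 to 2.04) over the empty vector and -1.74 (-1.82 to -1.68) for shDCBLD2 over the scramble control. It was -1.77 (-1.85 to -1.70) between the control lines. With the controls exchanged both differences shrank, to 0.19 for the library labelled OE over the scramble control and 0.03 for shDCBLD2 over the empty vector. GPX2 overlaps FNTB, which is on the opposite strand and had between 421 and 711 counts. GSR, which recycles oxidized glutathione, ranged from 327 to 468 CPM. GSTP1, the main glutathione transferase of these cells, ranged from 1026 to 1474 CPM and had a log2 ratio of 0.09 over the empty vector.

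In the thioredoxin system, which reduces protein disulfides in parallel with glutathione, all 3 genes were below 0 against the empty vector. TXNRD1, the cytosolic thioredoxin reductase, stood at 1143 CPM in the scramble control, 1074 in shDCBLD2, 895 in the empty vector library and 449 in the one labelled OE. That last level was 1.99-fold lower than with the empty vector, just short of a call, with an interval from -1.04 to -0.96 on the log2 scale. The pseudogene RPL18AP3 lies within TXNRD1 on the same strand and had 1816, 1878, 2632 and 3256 counts, the most where TXNRD1 had the fewest. TXN, the thioredoxin that TXNRD1 serves, stood at 378, 388, 392 and 235 CPM, with a log2 ratio of -0.74. SRXN1, which repairs overoxidized peroxiredoxins, stood at 104, 110, 79.6 and 61.9 CPM, with a log2 ratio of -0.36. The longest coding transcript of SRXN1 shares 84.7% of its 50-base words with another annotated gene, AL121758.1, so the SRXN1 counts are less certain. In shDCBLD2 these 3 genes stayed between -0.09 and 0.08 relative to the scramble control.

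The genes that supply NADPH split. ME1, the cytosolic malic enzyme, was lower against the empty vector, at 39.3 against 73.1 CPM and a log2 ratio of -0.89 (-1.03 to -0.76), while it stood at 68.6 CPM in the scramble control and 73.8 in shDCBLD2. The pentose phosphate enzymes PGD and TKT were instead lowest in shDCBLD2. PGD stood at 2432, 1660, 2581 and 2165 CPM, with a log2 ratio of -0.55 (-0.57 to -0.53) for shDCBLD2 over the scramble control. TKT stood at 3854, 2610, 5034 and 3952 CPM, with -0.56 (-0.58 to -0.55). TALDO1, a further enzyme of that pathway, stood at 523, 583, 575 and 632 CPM, with a log2 ratio of 0.14 over the empty vector. None of these 4 genes reached 2-fold in any of the comparisons. After the centring on GC bins described below, ME1 no longer stood below PGD and TKT over the empty vector. The centred log2 ratios there were -0.38 for ME1, -0.42 for PGD, -0.59 for TKT and -0.11 for TALDO1. In shDCBLD2 over the scramble control, PGD and TKT stayed lower after centring, at -0.51 and -0.48.

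The aldo-keto reductases, which reduce aldehydes, ketones and steroids, were the group with the lowest median in shDCBLD2, -0.82 beside -0.13 for all 38. AKR1C1 stood at 713 CPM in the scramble control, 317 in shDCBLD2, 566 in the empty vector library and 888 in the one labelled OE. Its log2 ratio was -1.17 (-1.21 to -1.13) in shDCBLD2 and 0.65 (0.61 to 0.68) over the empty vector. Between the control lines the AKR1C1 ratio was -0.33, and with the controls exchanged it was -0.84 in shDCBLD2 and 0.32 in the library labelled OE. AKR1C2 stood at 2831, 1444, 2846 and 2267 CPM, and its log2 ratio in shDCBLD2 was -0.97 (-0.99 to -0.95), just short of a call, which it reached with library totals as the only scaling. AKR1C3 stood at 1688, 958, 1435 and 1318 CPM, with -0.82 (-0.84 to -0.79). All 3 were lowest in shDCBLD2. These genes resemble each other closely, and 52.2% of the 50-base words of AKR1C2 and 28.7% of those of AKR1C1 occur in other genes, so reads may have been divided between them. Their summed counts do not depend on that division, and gave log2 ratios of -0.94 (-0.96 to -0.93) in shDCBLD2, -0.12 over the empty vector and -0.11 between the control lines. Against the empty vector in place of the scramble control the sum in shDCBLD2 was still lower, at -0.83 (-0.85 to -0.82). AKR1B10 had a log2 ratio of -0.56 in shDCBLD2 and -0.45 between the control lines, and AKR1B1, a related reductase of sugars, had 0.07 in shDCBLD2. AKR1B1 stood at 1684, 1764, 1902 and 1677 CPM.

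The quinone, carbonyl and xenobiotic enzymes were led in level by NQO1, the quinone reductase that is commonly read as a reporter of NRF2 activity. NQO1 stood at 2138 CPM in the scramble control, 1971 in shDCBLD2, 2111 in the empty vector library and 1693 in the one labelled OE. Its log2 ratio over the empty vector was -0.32 (-0.34 to -0.30), smaller than that of GCLM or NFE2L2, and in shDCBLD2 it was -0.12 (-0.14 to -0.10). CYP4F11, a fatty acid hydroxylase, stood at 74.4, 25.2, 29.7 and 62.8 CPM, the same pairing of libraries as GPX2. Its log2 ratios were 1.08 (0.93 to 1.23) over the empty vector, -1.56 (-1.71 to -1.42) in shDCBLD2 and -1.32 (-1.47 to -1.18) between the control lines, and with the controls exchanged -0.24 in both comparisons. EPHX1, the microsomal epoxide hydrolase, stood at 431, 258, 321 and 544 CPM. Its log2 ratios were 0.76 (0.71 to 0.81) over the empty vector and -0.74 (-0.79 to -0.69) in shDCBLD2. Between the control lines the EPHX1 ratio was -0.43, and with the controls exchanged the ratios shrank to 0.33 and -0.31. UGDH, which makes the sugar donor for glucuronidation, stood at 366, 350, 300 and 181 CPM, with -0.73 (-0.79 to -0.66) over the empty vector. The carbonyl reductase CBR3 stood at 16.6, 15.1, 23.5 and 16.1 CPM, highest with the empty vector, and its log2 ratio between the control lines was 0.50 (0.29 to 0.72). CBR1, its closest relative, ranged from 163 to 182 CPM. PTGR1, which reduces reactive alkenals and prostaglandins, ranged from 227 to 320 CPM.

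The 3 export pumps differed from each other. ABCC3, which exports glucuronide and bile acid conjugates, stood at 724 CPM in the scramble control, 345 in shDCBLD2, 680 in the empty vector library and 1163 in the one labelled OE. The control libraries were close to each other, shDCBLD2 was below both and the library labelled OE was above both. Its log2 ratio was -1.07 (-1.11 to -1.03) in shDCBLD2 and 0.77 (0.74 to 0.81) over the empty vector, with -0.09 between the control lines, and with the controls exchanged it was -0.98 and 0.69. ABCC2, a pump of the same family, stood at 249, 190, 170 and 110 CPM, with a log2 ratio of -0.63 (-0.71 to -0.55) to the empty vector, and ABCC1 ranged from 295 to 405 CPM. Over the list as a whole, ABCC3 was the gene called in shDCBLD2 whose level differed least between the control lines.

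**Figure D3:**
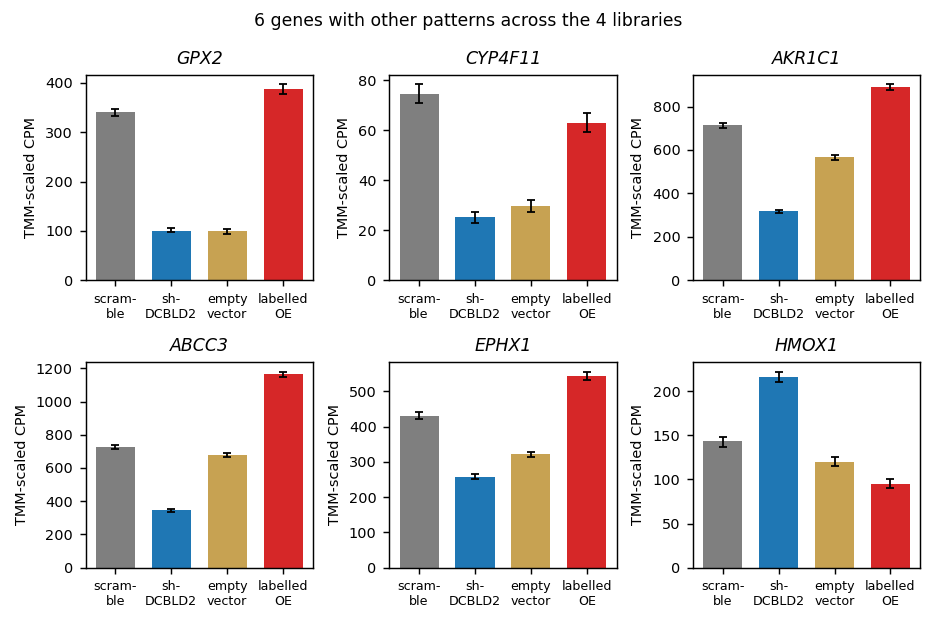
TMM-scaled CPM of GPX2, CYP4F11, AKR1C1, ABCC3, EPHX1 and HMOX1 in the 4 libraries; each bar is 1 library and each error bar is an exact 95% Poisson interval, which covers counting error only. GPX2 (340 and 387 against 101 and 99.3 CPM) and CYP4F11 are high in the scramble control and in the library labelled OE, ABCC3 is close in both control libraries, and HMOX1 is highest in shDCBLD2.

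Of the heme and iron genes, HMOX1 was the only one of the 38 higher by at least 1.5-fold in shDCBLD2. HMOX1, the oxygenase that breaks down heme, stood at 143 CPM in the scramble control, 216 in shDCBLD2, 120 in the empty vector library and 95.3 in the one labelled OE. The log2 ratio in shDCBLD2 was 0.60 (0.53 to 0.67), and against the empty vector in place of the scramble control it was 0.85. FTL stood at 6684, 5913, 8885 and 5320 CPM, with log2 ratios of -0.74 (-0.75 to -0.73) to the empty vector and 0.41 (0.40 to 0.42) between the control lines. FTH1 stood at 3844, 3513, 3658 and 2488 CPM, with -0.56 to the empty vector. Both ferritin genes have many processed pseudogenes, and 40.4% of the 50-base words of FTH1 and 18.3% of those of FTL occur in other genes. The 25 pseudogene entries of FTH1 held at most 79 counts in any library and the 16 of FTL at most 17.

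PIR, an iron-binding nuclear protein, had the lowest ratio of all 38 genes to the empty vector. It stood at 58.8 CPM in the scramble control, 49.1 in shDCBLD2, 77.4 in the empty vector library and 30.4 in the one labelled OE. The log2 ratio was -1.35 (-1.50 to -1.20), or 2.55-fold lower. The empty vector was the highest library, 0.40 above the scramble control on the log2 scale, and over the scramble control the ratio was -0.95. OSGIN1, an oxidative stress-induced growth inhibitor, ranged from 42.8 to 80.6 CPM with a log2 ratio of -0.44. TRIM16 and TRIM16L share 57.8% and 56.7% of their 50-base words with other genes. TRIM16L stood at 472, 462, 522 and 409 CPM. The summed log2 ratio of both was -0.38 (-0.41 to -0.34) to the empty vector and 0.00 in shDCBLD2.

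Both comparisons were then set beside each other, since they share no library. Over the 38 genes Pearson's r between the 2 log2 ratios was -0.72 and Spearman's rho -0.42, beside -0.32 and -0.30 over the 13966 genes, as a description across genes that are not independent. With the controls exchanged the values were -0.58 and -0.59, beside -0.45 and -0.53. The ratios used here were not centred on GC content. Spearman's rho with GC content was 0.57 over the empty vector and -0.20 in shDCBLD2 across all genes with a GC value. Across the 38 genes it was 0.44 and 0.09. The part of GC content in the correlations between comparisons was not tested. Of the 38 genes, 21 were below 0 in both comparisons, 7 were above 0 over the empty vector and below 0 in shDCBLD2, 9 were the reverse and 1 was above 0 in both. Over the 13966 genes these counts were 2924, 3911, 4468 and 2643 in the same order. The 7 included GPX2, CYP4F11, AKR1C1, ABCC3 and EPHX1, the 5 highest of the list over the empty vector. With the scramble control as the control for the library labelled OE, 7 genes were called lower, beside 8.98% of all genes, and 0 higher, beside 8.08%. They were NFE2L2, GCLC, GCLM, SLC7A11, TXNRD1, ABCC2 and UGDH. With the empty vector as the control for shDCBLD2, 0 genes were called lower, beside 8.01%, and 0 higher, beside 2.23%. NFE2L2, GCLC and GCLM were thus called against both control libraries, and GPX2 and CYP4F11 against 1 of them, before any centring on GC content.

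**Figure D4:**
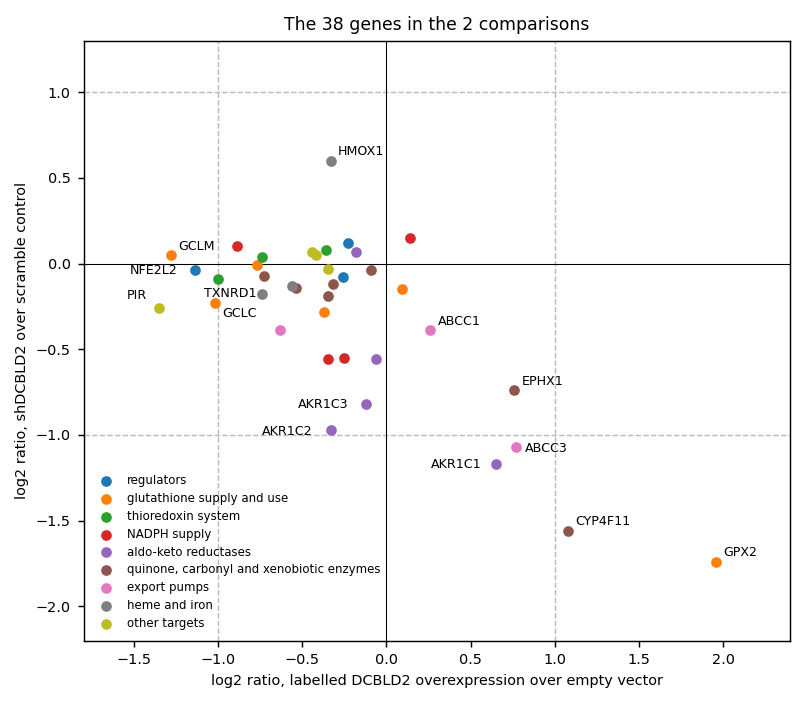
Log2 ratio of each of the 38 genes in the library labelled OE over the empty vector (horizontal) and in shDCBLD2 over the scramble control (vertical), coloured by role; dashed lines mark 2-fold. GPX2 (1.96 and -1.74) and CYP4F11 lie far to the lower right, while NFE2L2, GCLM, GCLC and PIR lie to the left near 0 on the vertical axis.

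The ratios over the empty vector went with the GC content of the transcripts. Across the 13690 genes with a GC value, Spearman's rho between GC content and the log2 ratio was 0.57, beside 0.31 between the control lines and -0.20 in shDCBLD2. All genes in the lowest of 10 GC bins, from 28.6% to 38.9%, had a median log2 ratio of -0.62, and those in the ninth had 0.30. Several of the lower genes are poor in GC, among them GCLM at 37.3%, SLC7A11 at 35.4%, GCLC at 44.3%, TXNRD1 at 44.8% and NFE2L2 at 45.6%. Relative to the median of their own bin, the log2 ratios were -0.67 for GCLM, -0.15 for SLC7A11, -0.77 for GCLC, -0.74 for TXNRD1 and -0.89 for NFE2L2. TXN changed from -0.74 to -0.31 and UGDH from -0.73 to -0.21 with this centring. SRXN1 changed from -0.36 to -0.53 and so came to lie below TXN. Only PIR was then still called lower, at -1.42, beside 1.89% of all genes, and GPX2 at 1.80, AKR1C1 at 1.08 and CYP4F11 at 1.00 were called higher, beside 6.27%. The median over the 38 genes was nearly the same, -0.36, since GC-rich genes such as FTL moved further down, to -0.98. For DCBLD2 itself, at 41.8% GC, this centring changed the log2 ratio over the empty vector from -0.84 to -0.41. Over the scramble control the link with GC content was closer, with a rho of 0.65. After the same centring TXNRD1 at -1.04 and OSGIN1 at -1.42 were called lower, beside 2.38%, and 0 genes higher, beside 6.77%. NFE2L2 at -0.94, GCLC at -0.94 and GCLM at -0.83 were then not called against either control library. For shDCBLD2 over the empty vector, AKR1C1 at -1.03 and AKR1C2 at -1.23 were called lower after centring, beside 6.88%, and HMOX1 at 1.01 higher, beside 1.86%. GC content and the condition cannot be told apart with 1 library each.

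**Figure D5:**
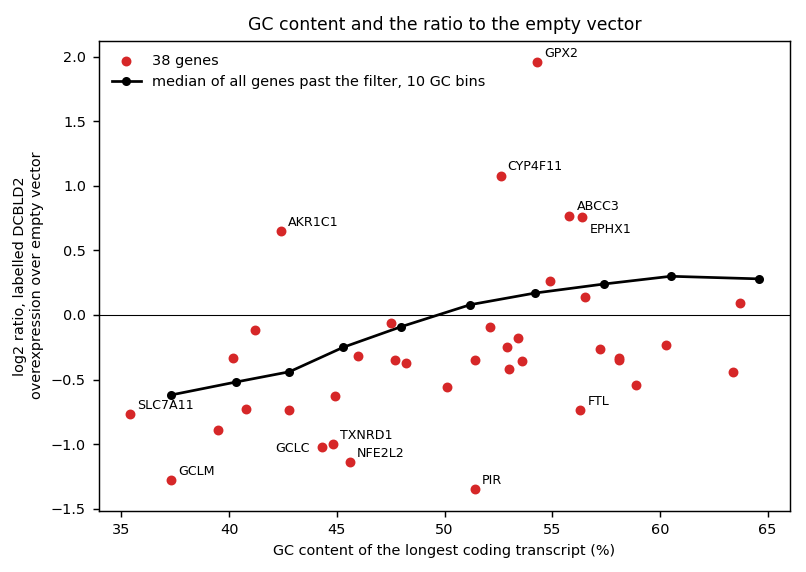
GC content of the longest coding transcript in percent (horizontal) and log2 ratio of the library labelled OE over the empty vector (vertical) for the 38 genes (red) and as the median of all genes past the filter in each of 10 GC bins (black line). The line climbs from -0.62 to about 0.30, and most of the 38 genes, such as PIR and FTL, lie below it.

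Further genes of the same pathways, 73 in 4 lists from general knowledge, were read in the same way, and 65 passed the filter. Over the empty vector 6 were called higher, beside 6.42% of all genes, and 3 lower, beside 5.35%, with a median log2 ratio of -0.12. After centring on GC bins 4 were higher, beside 6.27%, and 0 lower, beside 1.89%. In shDCBLD2 0 were higher, beside 1.16%, and 6 lower, beside 5.62%, with a median of -0.17. Between the control lines 2 were higher, beside 2.22%, and 2 lower, beside 1.89%, with a median of 0.10. Counts this small do not set these lists apart from all genes. Among the partners and degraders of NRF2, CUL3, the scaffold of the KEAP1 ligase, stood at 62.1 CPM in the scramble control, 72.4 in shDCBLD2, 51.4 in the empty vector library and 24.6 in the one labelled OE, a log2 ratio of -1.06 that was -0.44 after centring on GC bins. The related factor NFE2L1 stood at 0.12 and the small MAF gene MAFK at 0.03, while the competitor BACH1 stood at -0.40 with at most 10.9 CPM. The sign of each turned after centring, to -0.04 for NFE2L1, -0.26 for MAFK and 0.22 for BACH1. NFE2L3 stood at -0.94, or -0.69 after centring, and was called higher between the control lines at 1.14, beside 2.22%. In the glutathione system, 4 of 25 genes were called higher over the empty vector, beside 6.42% of all genes, and 0 lower, beside 5.35%. After centring 2 of them, GPX3 at 1.38 and GSTM2 at 2.69, were still called, while GGT7 at 0.80 and CHAC1 at 0.73 were not. The extracellular peroxidase GPX3 stood at 12.7, 6.86, 8.34 and 25.9 CPM, the glutathione transferase GSTM2 at 1.02, 0.974, 1.36 and 8.78, and GGT7 of the glutamyl transferase family at 16.5, 12.9, 18.7 and 40.2. In shDCBLD2 the glutaredoxin GLRX was called lower, with a log2 ratio of -1.31, as was GSTM4 with -1.12.

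Of the other detoxification genes past the filter, 4 of 18 were called lower in shDCBLD2, beside 5.62% of all genes. CES1, a carboxylesterase, had the widest difference. It stood at 5.32 CPM in the scramble control, 1.16 in shDCBLD2, 4.47 in the empty vector library and 87.8 in the one labelled OE, with log2 ratios of 4.27 over the empty vector and -2.10 in shDCBLD2. CYP4F3, a cytochrome of the same family as CYP4F11, stood at 24.2, 5.93, 11.9 and 19.8 CPM, and its log2 ratio was -2.01 in shDCBLD2 and -1.02 between the control lines. The pumps ABCC4 and ABCG2 were called lower against the empty vector, with -1.08 and -1.06, but not after centring on GC bins, with -0.64 and -0.54. None of the 12 further NADPH and pentose phosphate genes was called in any of the comparisons.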

How the data were processed

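RNA from 4 libraries of A549 cells, 1 per condition, was analysed from the raw read counts per gene that the authors deposited; all 4 sample columns were used. The authors also deposited FPKM values, which divide each count by the exonic length in kilobases and by the library total (within 1% for the 3238 to 4157 best-counted genes of each library that were checked) and were used to order genes by level; the exonic sizes were not used otherwise. The aligner, counting program, annotation and strand setting are not given in the sources used here. The submitters' processing notes name the mouse build mm9, although all gene identifiers are human, so no deposited coordinate is printed.

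Library totals were adjusted by edgeR 4.0.16 TMM factors (R 4.3.3), and by DESeq2 1.42.0 size factors as an alternative. CPM values carry exact Poisson intervals. Log2 ratios used a prior count of 2, with 95% Clopper-Pearson intervals (exact) from the share that either library had of both counts. Reads without molecular identifiers are not independent molecules, so intervals cover counting error only. Depth ranged from 16601633 to 21537283 counts, and 3 counts, the floor, correspond to between 0.139 and 0.182 CPM. Further steps used Python 3.11.15 (pandas 2.3.3, scipy 1.17.1, numpy 2.4.6, matplotlib 3.10.9). GC content and shared 50-base words came from GENCODE 29 transcripts, and promoters from RefSeq (GRCh38.p14); 9 genes had no promoter window.

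The members and lists were chosen with earlier results of these data known. Values per library are given for NFE2L2, KEAP1 and NQO1, for every gene called at 2-fold and for the highest and lowest gene of each role group in the comparison where the group spread most, and from each further list for at most the 3 highest and 3 lowest per comparison. Any other gene named, and the centring on GC bins, was chosen after values had been seen. In a test on simulated counts for the library labelled OE over the empty vector, the call found 193 of 200 genes changed 3-fold and wrongly took 11 of 13766 others. Those others were simulated as unchanged, so differences between separately made lines are not in this figure. Between the 2 control libraries the same call took 2.22% of all genes as higher and 1.89% as lower.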

Additional observations from a re-analysis of the deposited data

How the results depend on the processing

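With DESeq2 size factors, library totals alone, prior counts of 0.5 and 5, counts drawn down to the smallest library, other expression filters and a list without near-identical copies, the median log2 ratio of the 38 genes and the counts of calls kept their direction, and each count stayed within 1.5 times its value. Over the empty vector, the counts were 5 higher and 11 lower at 1.5-fold and 0 higher and 7 lower with the scramble control as control; with GC-bin centring, chosen after seeing the data, 1 was lower, and with both changes together 0 were higher and 2 lower. Over the 13 genes that overlap no other deposited gene, the median was -0.25, with 1 higher and 1 lower. In shDCBLD2, the counts were 1 higher and 7 lower at 1.5-fold. With the empty vector as control, the median was -0.05 and 0 were lower, and with GC-bin centring added 1 was higher and 2 lower. Over the 13 genes the median was -0.18, with 2 lower. Between the control lines, the median over the 13 genes turned to 0.05, with 1 lower. Fewer genes enter these last counts by construction. Every gene called at 2-fold is also called at 1.5-fold, so the counts at 1.5-fold cannot be smaller. The cause of the other shifts was not tested. The list without near-identical copies held 29 genes and still included SRXN1, which shares 84.7% of its 50-base words with another gene. No paired analysis was possible because each condition has 1 library, and no replicate could be left out for the same reason. Depth limits little here, since the lowest of the 38 genes, CBR3, had at least 15.1 CPM in each library.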
